A study of Homo sapiens with 12 samples.

Results

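Vesicles that carry protein from the endoplasmic reticulum (ER) to the Golgi, and back, are built from a small and well-defined set of gene products. The genes described here are 44 such genes, chosen by name from a list of coat subunits, cargo receptors, KDEL receptors, SNAREs, and tethers that act between these compartments. All 44 symbols were found among the 23292 gene symbols of the deposited tables. RNA came from HEK293T cells, a derivative of the human embryonic kidney line HEK293, and the labels use both names for the same samples. The cells were labelled wild type and were treated for 6 h with vehicle (DMSO), or with AA263, AA263yne, or AA263-5 at 10 µM each, which gave 4 groups of 3 samples, or 12 sequenced libraries. AA263 and its analogs were studied as activators of ATF6, an ER membrane protein that is cut under ER stress to release a transcription factor.

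Transport out of the ER begins when the GTPase SAR1 is loaded with GTP by its exchange factor PREB at sites organized by SEC16A. SAR1 then recruits the inner coat of SEC23 and SEC24, which binds cargo, and the outer cage of SEC13 and SEC31A, and together these form COPII vesicles. Traffic in the opposite direction uses COPI vesicles, in which the GTPase ARF1, loaded by GBF1, recruits the heptameric coatomer. KDEL receptors return escaped ER chaperones in COPI vesicles, the p24 proteins (TMED genes) and lectins such as LMAN1 sort cargo, and tethers and SNAREs dock and fuse the vesicles with their target membrane. When misfolded protein accumulates in the ER, the transcription factors ATF6 and XBP1s act through short promoter elements, the ER stress response elements ERSE and ERSE-II and the unfolded protein response element UPRE.

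The values used here are the authors' mean normalized values over all 12 samples, identical in the 3 tables. Because they are pooled, they have no spread, replicate number, or interval, and no level below is split by treatment. No order among genes was tested. The tables also hold the authors' own comparisons of each compound with vehicle, which were not used here. The depth of each sample is unknown from these values, which sum to 36.6 M over all symbols. Levels of different genes were compared per kilobase (kb) of the MANE Select transcript, the reference transcript agreed on by GENCODE and RefSeq, which all 44 genes have. The methods state that values already scaled per kilobase entered the authors' fit. Whether the deposited means were already divided by length was not settled, so orders per kb depend on this. Over the 14074 genes with a known transcript length whose mean reached 10, the median was 203 per kb, and each percentile below is a rank among these genes. Of genes known to mark this line, NEFM and NEFL had mean normalized values of 3786 and 2225, and LHX1 and PAX2 had 85.8 and 27.7. The liver gene ALB and the leukocyte gene PTPRC had values of 1.3 and 0.544. The hemoglobin gene HBB was not found under its symbol.

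The promoters of these genes often carried the UPRE letters. A promoter was taken as the 250 bases before and 50 bases from a transcript start in RefSeq (GRCh38.p14), with 1 promoter per gene. The listed start nearest to the gene's GENCODE transcript was used, or the first listed start where no transcript was matched. For each of the 44 genes with an entry, this was the start of its MANE Select transcript. Such an entry was present for 38 of the 44 genes, and SEC24D, ARF4, TMED4, TMED9, KDELR2, and USO1 had none. The UPRE letters TGACGTGG, read on both strands, were present in 9 of these 38 promoters (23.7%). Among all 27305 promoters of the same length, 213 held them (0.78%), and among the 11282 promoters of genes whose mean reached 10, 105 held them (0.931%). Each sequence is 40 bases long, is written 5′ to 3′ on the strand of its gene, and is shown because it holds a match, in capitals. Capitals read CCACGTCA where the match lies on the opposite strand, and position 0 is the first transcribed base.
ARF1, chr1:228082676-228082715, plus strand, match at -16 to -9: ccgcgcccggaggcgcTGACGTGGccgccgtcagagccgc
GBF1, chr10:102245521-102245560, plus strand, match at 5 to 12: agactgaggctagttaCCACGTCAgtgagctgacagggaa
COPA, chr1:160343222-160343261, minus strand, match at 5 to 12: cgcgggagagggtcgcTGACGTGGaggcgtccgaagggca
COPB1, chr11:14499836-14499875, minus strand, match at -48 to -41: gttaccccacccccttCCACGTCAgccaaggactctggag
COPB2, chr3:139389627-139389666, minus strand, match at -3 to 4: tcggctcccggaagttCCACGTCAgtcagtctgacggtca
COPB2, chr3:139389820-139389859, minus strand, match at -196 to -189: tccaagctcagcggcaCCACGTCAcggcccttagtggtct
SEC23A, chr14:39103216-39103255, minus strand, match at -4 to 3: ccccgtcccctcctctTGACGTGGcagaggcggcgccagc
SEC24A, chr5:134648590-134648629, plus strand, match at -179 to -172: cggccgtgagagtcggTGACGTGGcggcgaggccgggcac
KDELR3, chr22:38468034-38468073, plus strand, match at -46 to -39: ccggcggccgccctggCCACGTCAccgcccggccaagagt
STX5, chr11:62832044-62832083, minus strand, match at -16 to -9: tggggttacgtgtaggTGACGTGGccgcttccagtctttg

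These 9 promoters held 10 matches, since COPB2, which encodes the β′ subunit of coatomer, held 2. Of the 10 matches, 8 lay within 50 bases of the transcript start, and the exceptions were the match of SEC24A and the upstream match of COPB2. The matches read along the gene's own strand in 5 cases and along the opposite strand in 5. By role, the letters were found in both ARF1 and GBF1, the COPI GTPase and its exchange factor, in 3 of 8 coatomer promoters, and in 2 of 5 inner COPII coat promoters. They were also found in 1 of 2 KDEL receptor promoters and in 1 of 5 SNARE promoters, that of the Golgi syntaxin STX5. In none of the 5 p24 promoters, the 4 cargo receptor promoters, or the 2 outer COPII coat promoters were these letters found within the 300 bases. The same held for the promoters of SAR1A, SAR1B, PREB, and SEC16A, and for GOLGB1, a Golgi tether, although another listed promoter of SEC16A did hold the letters. A match is a description of letters, and whether ATF6 or XBP1s binds there was not measured.

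The shorter core of the motif was also frequent. The core ACGTG was present in 27 of the 38 promoters (71.1%), compared with 21.6% of all promoters and 26.8% of those of genes whose mean reached 10. The core CCACG, shared by ERSE and ERSE-II, was present in 33 of the 38 (86.8%), compared with 38.1% and 50.3%. Both cores lie within the UPRE letters when both strands are read, so these counts overlap with those of the full motif. The promoters of the listed genes were also richer in G and C, with a median of 66.7% (range 48.3% to 79%) against 59% over all promoters, and the part of base composition in these shares was not tested. The full ERSE, CCAAT and CCACG separated by 9 bases, was in none of the 38 promoters and in 24 of all 27305 (0.0879%). ERSE-II, an 11-letter element that joins ATTGG and CCACG by 1 base, was in none of the 38 and in 16 of all (0.0586%). These counts of 0 say only that the letters are not in these windows.

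Other ER-Golgi transport genes were searched in the same way, from a list of the same pathway. Of the 48 with a promoter, 1 held the UPRE letters (2.08%), SCFD1, which encodes a Sec1 family fusion factor. The cores ACGTG and CCACG were in 37.5% and 58.3% of these 48. The difference from the 44 listed genes was not tested.

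**Figure D1:**
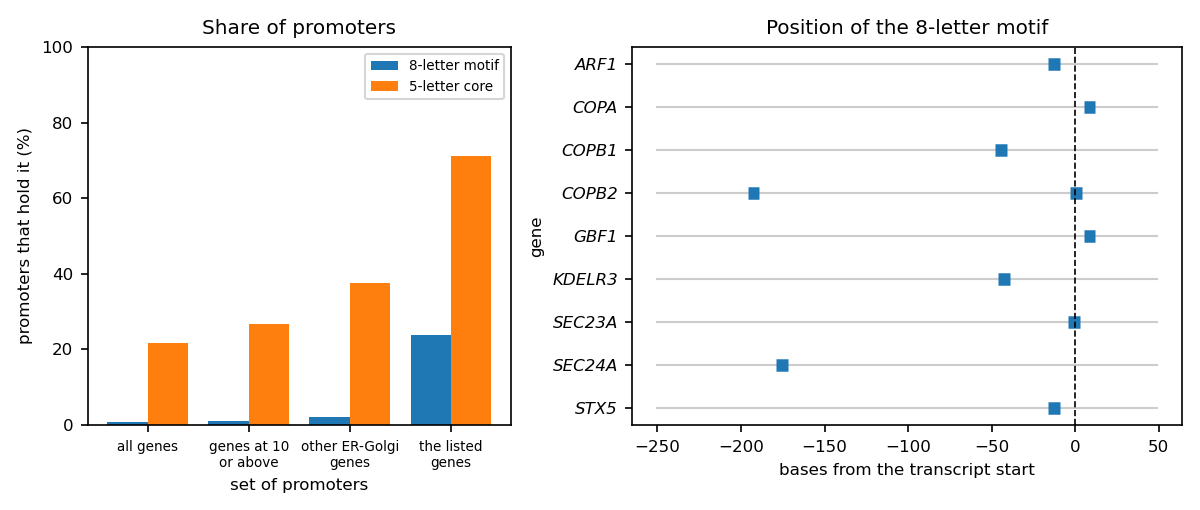
Left, share of promoters (%) that hold the 8-letter UPRE motif (blue) or its 5-letter core (orange) in each set of promoters, from 0.78% of all promoters to 23.7% of those of the listed genes for the full motif. Right, position in bases from the transcript start (dashed line) of each of the 10 matches, where grey lines span the promoter, and 8 matches lie within 50 bases of the start.

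The levels of the 44 genes lay mostly above the median gene and spread widely. Their median was 1289 per kb, and they ranged from 99.3 per kb for SAR1B to 13091 per kb for ARF1, a 132-fold span. Without division by length, the lowest was KDELR3, with a mean normalized value of 252, while SAR1B had 647. Of the 44, 41 lay above the median gene, 31 above percentile 75, and 15 above percentile 90, with a median percentile of 85.1. With MANE Select lengths, the exceptions below the median gene were SAR1B, KDELR3, and TMED7, of which TMED7 lay almost on it at 202.6 per kb. BET1 lay below it with the longest transcript, the union of exons, and no division by length (percentiles 43.8, 43, and 42). TMED7 lay above it in these settings (52.6, 59.5, and 52.4). With the union of exons, GOSR2 and GOLGB1 lay below it (47.8 and 47.7) and KDELR3 just above it (50.4). Summed, the mean normalized values of the 44 genes made up 0.695% of those of all symbols.

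Within the COPII machinery, the small GTPase had the lowest levels per kb of MANE Select transcript, an order that did not hold per coding length, and its exchange factor was among the highest. SAR1A had 285 per kb (percentile 57.2) and SAR1B, the paralog known for its part in chylomicron secretion, had 99.3 per kb (percentile 37.1). PREB, the membrane protein that loads SAR1 with GTP, had 5439 per kb (percentile 96.8). The scaffold gene SEC16A, which marks ER exit sites, had 920.5 per kb (percentile 80.3).

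The outer cage genes stood above the inner coat genes per kb of MANE Select transcript. SEC13, which is also a subunit of the nuclear pore, had 5522 per kb (percentile 96.9), and SEC31A, its partner in the cage, had 3087 per kb (percentile 93.9). The 6 inner coat genes ranged from 429 to 1801 per kb, and each of them was lower than both cage genes with MANE Select lengths. Per kb of the union of exons, SEC24C, at 1496 per kb, lay above SEC31A and SEC13, at 1427 and 1395 per kb. Without division by length, SEC24C, with a mean normalized value of 8006, also lay above SEC13, with 7504. SEC23B and SEC23A, which activate the GTPase of SAR1, had 1515 and 1145 per kb. Of the cargo-binding subunits, SEC24C had 1801 per kb, SEC24D 1253 per kb, SEC24B 594 per kb, and SEC24A 429 per kb. When paralogs were summed, SEC24 reached 4078 per kb, SEC23 2660 per kb, and SAR1 384 per kb. The parts of the COPII coat thus spanned 14.4-fold from SEC13 to SAR1. Summed SEC24 was instead the highest part with the longest transcript (3991.5 per kb), the union of exons (2958 per kb), and no division by length (18804). SAR1 messages have short coding sequences of 594 bases within long transcripts. Per kb of coding sequence this span was 2.14-fold, with SEC31A lowest, and the low rank of SAR1 therefore depended on the length by which values were divided.

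The coatomer genes were abundant. The 8 genes had a median of 2692 per kb and ranged from 674 to 8094 per kb. COPE, which encodes the ε subunit, had 8094 per kb (percentile 98), and COPZ1, for the ζ subunit, had 5354 per kb (percentile 96.7). COPG1, COPB2, and COPA, for the γ, β′, and α subunits, had 2881, 2797, and 2588 per kb. COPB1 and ARCN1, for the β and δ subunits, had 1831 and 1270.4 per kb (percentiles 89.3 and 84.9). COPG2, the alternative γ subunit, was lowest with 674 per kb (percentile 74.8). With the γ paralogs summed to 3556 per kb, the 7 subunits of this complex spanned 6.37-fold from COPE to ARCN1. Before division by length the span was 2.71-fold, from COPA to ARCN1. COPB2 was lowest with the longest transcript (728 per kb) and with the union of exons (489 per kb), and COPB1 was lowest per coding length, so the order within coatomer depended on the length used.

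ARF1, the GTPase that recruits coatomer, had the highest level of all 44 genes. Its mean normalized value was 24087, or 13091 per kb (percentile 98.9). ARF4, another ARF of the early secretory pathway, had 1091 per kb (percentile 82.7), and GBF1, the large exchange factor for Golgi ARFs, had 1308 per kb (percentile 85.3). SAR1A and SAR1B, the corresponding GTPases of COPII, lay at percentiles 57.2 and 37.1.

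**Figure D2:**
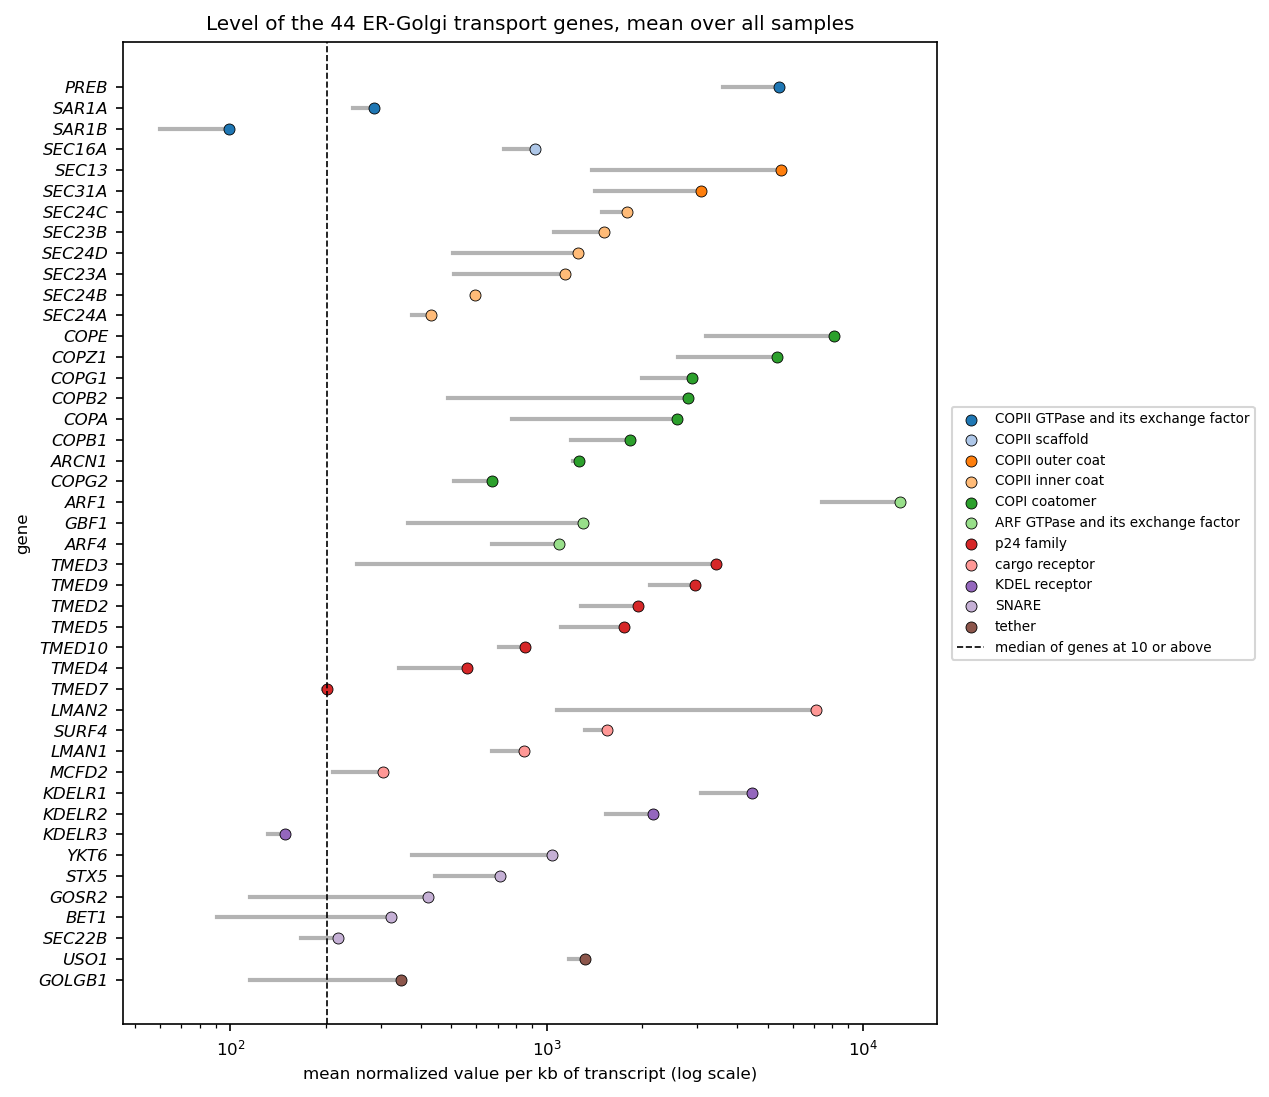
Mean normalized value per kb of MANE Select transcript, on a log axis, for each of the 44 genes, coloured by role; each point is the authors' pooled mean over 12 samples, so no error is drawn. Grey bars span the values obtained with the MANE Select transcript, the longest transcript, and the union of exons as length, and the dashed line is the median of genes with a value of at least 10 (203 per kb), which 41 points exceed.

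Among the retrieval and sorting receptors, the ratio of highest to lowest level was larger than among the coatomer or inner COPII coat genes. KDELR1, the receptor that returns proteins with a C-terminal KDEL signal, had 4464 per kb (percentile 95.9), and KDELR2 had 2172 per kb (percentile 91.2). KDELR3, the third paralog, had 148 per kb (percentile 44.1), 30.1-fold less than KDELR1. LMAN2, which encodes the lectin VIP36, had 7115 per kb (percentile 97.7), and LMAN1, which encodes the lectin ERGIC-53, had 846 per kb (percentile 78.9). MCFD2, the partner of LMAN1 in export of coagulation factors V and VIII, had 304 per kb (percentile 58.4). SURF4, a multispanning receptor for soluble cargo, had 1549.7 per kb (percentile 87.5).

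The 7 p24 genes ranged from 202.6 to 3437 per kb with a median of 1763 per kb. These encode small membrane proteins that assemble in heteromeric complexes and are carried in both coats. TMED3 had 3437 per kb, TMED9 2937 per kb, TMED2 1941 per kb, and TMED5 1763 per kb. TMED10 had 855 per kb, TMED4 561 per kb, and TMED7 202.6 per kb. The order at the top was not stable: TMED9 led with the longest transcript or the union of exons, and TMED5 led without division by length. TMED3 has a longest transcript of 16555 bases and a MANE Select transcript of 1418 bases, and its percentile ran from 60.7 to 94.6 over these settings.

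The 5 SNARE genes, whose products drive membrane fusion, had a median of 422 per kb and a median percentile of 65.5. YKT6 had 1039.8 per kb, STX5 712 per kb, GOSR2 422 per kb, BET1 321 per kb, and SEC22B 219 per kb. With these lengths the highest was 4.75-fold above the lowest, but the order depended on the length. STX5 led with the longest transcript (712 per kb) and the union of exons (443 per kb). BET1 was lowest with the longest transcript (133 per kb), the union of exons (90.6 per kb), and no division by length (475). USO1, which encodes the tether p115, had 1318 per kb (percentile 85.4). GOLGB1, which encodes the long Golgi tether giantin, had 348 per kb (percentile 61.3), and its percentile ran from 47.7 to 86.7 over the ways of dividing by length.

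**Figure D3:**
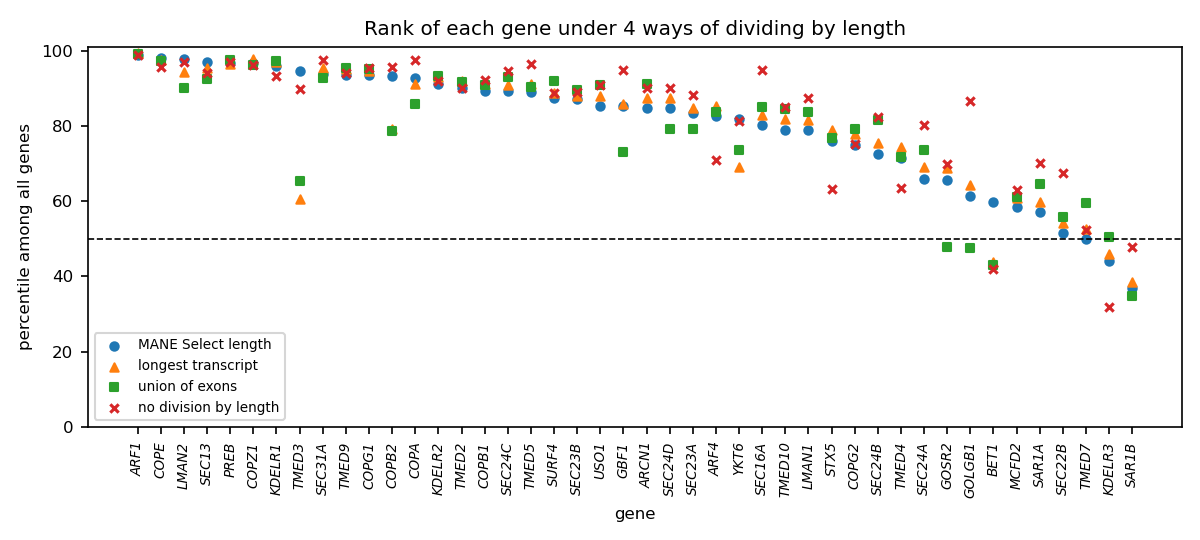
Percentile of each of the 44 genes among genes with a value of at least 10, ordered by the MANE Select value, under 4 ways of dividing by length (circles, MANE Select; triangles, longest transcript; squares, union of exons; crosses, no division). Percentiles of 26 genes moved by at most 10 points, those of TMED3 and GOLGB1 by more than 25, and 38 genes stayed above 50 (dashed line) in all 4.

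In 7 of the 8 paralog families, the same gene led with MANE Select lengths, the longest transcript, the union of exons, no division by length, and coding length. Ranges in parentheses cover the first 4 of these settings and leave out coding length. ARF1 made up 92.3% of the summed level of ARF1 and ARF4 (91.7% to 93.3%), and COPG1 made up 81% of that of the γ subunits (79.7% to 81%). SAR1A made up 74.2% of SAR1 (72.2% to 80.2%), and LMAN2 made up 89.4% of its pair (61.6% to 89.4%). In these 4 pairs, 1 gene held most of the summed level, though the share of LMAN2 moved with the length used. Of the SEC23 paralogs, SEC23B held 57% (51% to 67.5%) and SEC23A 43%. With MANE Select lengths SEC23 was the most even of the 5 pairs, while with the union of exons the LMAN pair was more even. Within SEC24, SEC24C held 44.2% (42.6% to 50.6%), SEC24D 30.7% (17.2% to 31.4%), SEC24B 14.6% (14.6% to 19.6%), and SEC24A 10.5% (10.5% to 14.6%). With the union of exons, SEC24B at 19.6% exceeded SEC24D at 17.2%, and per coding length SEC24A at 14.7% exceeded SEC24B at 13.9%. Of the KDEL receptors, KDELR1 held 65.8% (52.3% to 65.8%), KDELR2 32%, and KDELR3 2.19% (1.9% to 2.77%).

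**Figure D4:**
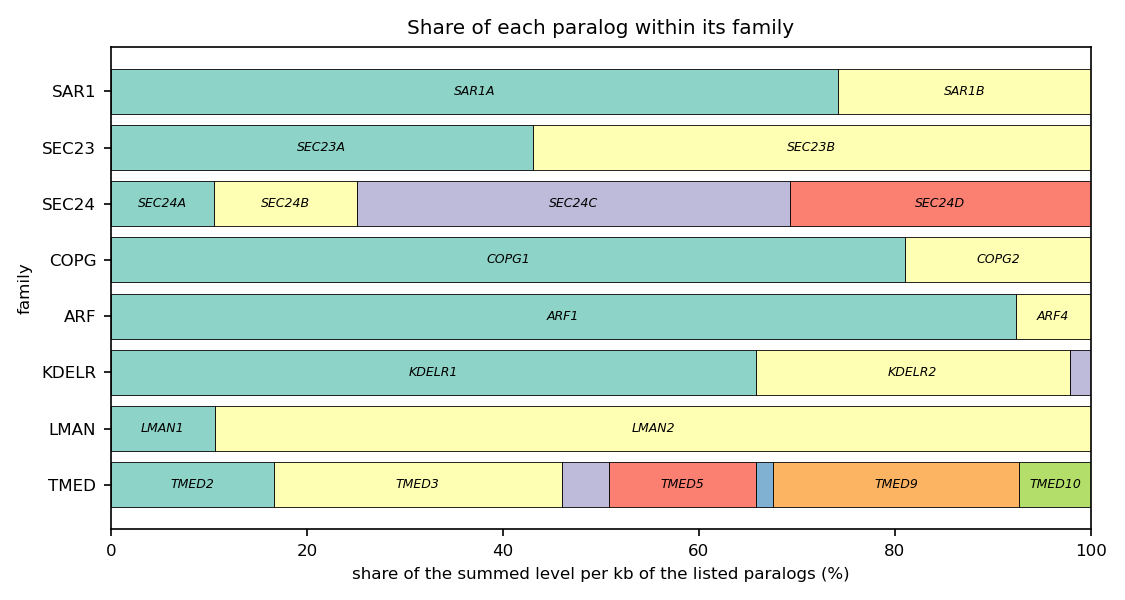
Share (%) of each paralog in the summed level per kb of its family, stacked over the members of each family. Levels are per kb of MANE Select transcript, with which SEC23B (57%) and SEC23A (43%) are the most even pair and ARF1 holds 92.3% of its pair; the unlabelled slices are KDELR3 (2.19%), TMED4 (4.8%), and TMED7 (1.73%).

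The paralogs within each family were related to different degrees. Identity was taken as the identical bases in a global alignment over the length of the longer coding sequence, so that unaligned bases counted as differences. It was 77.8% for SAR1A and SAR1B, 75.3% for SEC23A and SEC23B, 73.1% for COPG1 and COPG2, and 67% for ARF1 and ARF4. KDELR1 and KDELR2 were 75% identical, and KDELR3 was 71.2% and 71.8% identical to them. SEC24A paired with SEC24B at 58.1% and SEC24C with SEC24D at 61.7%, while identity across these pairs was 47.3% to 53.4%. In the p24 family, TMED4 and TMED9 were 73.5% identical and TMED3 and TMED7 65.5%.

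Read along the strand of each transcript, no exact stretch of 50 bases was shared between any pair of the 44 genes. Some were shared with other loci, which makes those levels less certain. Of the 50-base stretches in the COPE transcript, 20.1% also occurred in a transcript of an overlapping gene on the same strand. For TMED7 the share was 19.7%, all with the readthrough gene TMED7-TICAM2, for GOSR2 it was 14.7%, and for COPB1 it was 10.9%. SEC22B, which has several copies in the genome, shared 11.7%, mostly with 1 unnamed gene (9.73%), and KDELR2 shared 5.08% with DAGLB. In each of the other genes the share was at most 2.24%. On the opposite strand, exons of other genes covered 43.4% of the SEC24C transcript and 29.6% of the COPB2 transcript, the latter belonging to MRPS22. Exons of SAR1B, itself among the 44 genes, covered 389 bases (6.09%) of the SEC24A transcript on the opposite strand. The libraries were strand-specific by their labels, while the strand setting of the counting was not given in the sources used here.

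The 44 genes lay on 17 chromosomes. SAR1B and SEC24A, on chromosome 5, lay head to head on opposite strands, with gene models that overlapped by 487 bases. The SAR1B promoter searched here, at chr5:134632779-134633078, lay at another start inside its gene model and outside this overlap. The SEC24A promoter was at chr5:134648535-134648834. The UPRE match of SEC24A, at -179 to -172 from its start, lies inside the SAR1B gene model. LMAN2 and TMED9 were 240362 bases apart on the same chromosome, and YKT6 and TMED4 363599 bases apart on chromosome 7.

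The levels of the 9 genes with UPRE letters covered nearly the whole range of the 44. They ran from 148 per kb for KDELR3 to 13091 per kb for ARF1, with a median of 1308 per kb against 1289 per kb over all 44. KDELR3 and ARF1, both with a match within 50 bases of the start, thus lay near opposite ends of the range.

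The other genes of the pathway had a lower median than the 44, and the difference was not tested. Of a list of 58 related genes (further COPI and COPII factors, Rab GTPases, tethers, SNAREs, and cargo receptors), 56 were found with a transcript length, and MIA2 and LMAN1L were not found under those symbols. Their median was 666 per kb, and 43 lay above the median gene and 28 above percentile 75. The highest were TRAPPC1, a core subunit of TRAPP tethers, at 10654 per kb, BCAP31, an ER membrane cargo receptor, at 7705 per kb, and the GTPase ARF5 at 6956 per kb. The lowest were TMED6 at 15.4 per kb, TRAPPC2 at 12.5 per kb, and COPZ2, the alternative ζ subunit of coatomer, at 10.9 per kb. COPZ2 was the only gene of the list with a mean normalized value below 10 (9.98), whereas all 44 listed genes exceeded 10.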

How the data were processed

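RNA from 12 HEK293T samples (3 each of vehicle, AA263, AA263yne, and AA263-5) was made by the vendor into strand-specific libraries of polyadenylated RNA. According to the methods, the authors aligned reads to GRCh38.p7 with DNAstar SeqManPro, measured expression in ArrayStar with QSeq, and tested each compound against vehicle by DESeq2. The submitters' processing notes name DESeq2 1.40.1, GRCh38, and GRCh37. The signal used here is the deposited mean normalized value, which the authors averaged over all samples after scaling. The methods state that RPKM values entered the fit. The deposited values sum to 36.6 M, and over 14074 genes their Spearman correlation with transcript length was 0.0459. Whether they were already divided by length was not settled, so spans, shares, and percentiles were also computed without division by length.

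The tables' other columns hold the authors' log2 fold change, its standard error, the Wald statistic, the p-value, and the adjusted p-value of each compound against vehicle. These were not used. The planned test of each compound per gene needs values of single samples and was not run, so no test, interval, or estimate of replicate error is given here. Symbols that read as dates or numbers (23 per table) were counted but not removed. They remain among the 23292 symbols and in the sum of all values.

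Lengths came from GENCODE 44 on GRCh38, matched by symbol (943 of 17978 by a RefSeq synonym), and covered 90% of the 15638 symbols with a value of at least 10. Symbols on a build later than the authors' can differ. Exact 50-base stretches, exonic overlaps, coding-sequence identity (global alignment), and motif matches were computed with Python 3.11.15, pandas 2.3.3, and Biopython 1.88. These steps, except the exonic overlaps, were tested on simulated data. Coding sequences were aligned in place of the planned protein alignment. Promoters came from RefSeq (GRCh38.p14). All 44 members are named, together with the 3 highest and 3 lowest of the related list, and SCFD1 was named after its value was seen. The members and lists were chosen with earlier results of these data known. Some single genes of the marker list are not reported here.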

Additional observations from a re-analysis of the deposited data

How the results depend on the processing

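No paired analysis was possible because the values used are means over all samples, and leaving out each replicate and the replicate block were not run for the same reason. The median level was 1289 per kb with MANE Select lengths, 1107 with the longest transcript, 690.4 with the union of exons, and 4906 without division by length, and it was 2845 per kb of coding sequence. The median percentile of 85.1 became 85.6, 84.1, and 89.9 with the first 3 of these alternatives, 81.3 against genes of at least 100, and 88.3 with no minimum. The COPI span of 6.37-fold became 7.36, 6.51, 2.71, and 8.92 in the same order of lengths. The highest subunit was COPE, COPZ1, or COPA and the lowest ARCN1, COPB2, or COPB1, depending on the length. The COPII span of 14.4-fold became 10.5, 9.75, 8.07, and 2.14, and SAR1 was lowest in each except per coding length. The highest COPII part was SEC13 with MANE Select and coding lengths and summed SEC24 in the other settings. With the motif core alone, the UPRE count rose from 9 to 27 promoters, and those of ERSE and ERSE-II from 0 to 33 each. With any listed promoter of a gene, UPRE was found in 10 members (26.3% of 38), SEC16A being the one added, and both ERSE forms in 0. In this setting 253 of all 27305 genes (0.927%) held UPRE, as did 1.2% of genes whose mean reached 10. Coding length and any listed promoter were chosen after seeing the data. The count of members above the median gene was 37 to 44, and that above percentile 90 was 13 to 21, over the minimum values and the lengths other than coding length. Without values of single samples, no difference between neighbouring levels can be set against replicate error.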
